A study of Homo sapiens with 54 samples.

Results

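The comparison described here set NCI-H23 cells with both TRA2 paralogs knocked down (TRA2A/B DKD, 3 libraries) against NCI-H23 cells with control guides (Control KD, 3 libraries). Its members were all genes with at least 1 TPM (a gene's share of a library's transcripts, scaled so that all genes add up to the same total) in at least 4 of the 12 NCI-H23 libraries. This kept 16293 of 55906 gene names, and 12307 of the kept names are protein-coding in the reference annotation. NCI-H23 is an established lung adenocarcinoma cell line. The cells stably carried Zim3-dCas9, a nuclease-dead Cas9 fused to a repressor domain that silences the promoter a guide points it to (CRISPRi), were a sorted pool rather than a clone, and received lentiviral guides 5 days before collection. Control KD, TRA2A KD and TRA2B KD cells carried the same Zim3-dCas9, so the groups differed in their guides alone as far as the labels say. Polyadenylated RNA was sequenced in 54 libraries of the whole series. Nothing states that the 3 libraries of a group came from separate cultures, so p-values measure the spread between these libraries, which may be technical. In bulk RNA a lower level in every cell and a loss of some of the cells cannot be told apart.

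TRA2A and TRA2B are SR-like RNA-binding proteins. They bind purine-rich sequences in exons and promote inclusion of those exons during splicing, and the paralogs bind closely similar motifs. The values here are gene-level abundances, so they report how much RNA a gene gave, not how it was spliced.

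The guides that the study lists for CRISPRi are shown because they fix where the repressor was sent. Each matched its chromosome at 1 position in hg38, on the first exon and within the 5' untranslated region of its gene. TRA2A lies on the minus strand of chromosome 7 and TRA2B on the minus strand of chromosome 3. The listed pairs combine 1 guide per gene, and which pair was used for RNA sequencing is not given in the sources used here. Capitals mark the PAM, the genomic bases next to the target that Cas9 needs.
TRA2A first guide, chr7:23531952-23531971, minus strand: agcctgcgaccgagtgggagTGG
TRA2A second guide, chr7:23531940-23531959, plus strand: cgctccactccactcccactCGG
TRA2B first guide, chr3:185937984-185938003, minus strand: ggaggcggtgcggagcatttCGG
TRA2B second guide, chr3:185937974-185937993, minus strand: cggagcatttcggctctgagCGG
The TRA2A guides began 10 and 22 bases after the annotated transcription start, and the TRA2B guides 11 and 21 bases after it.

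Both targets fell. TRA2A was at 102, 107 and 105 TPM in the control libraries and at 19.9, 21.4 and 23.1 TPM in the DKD libraries. TRA2B was at 80.3, 103 and 93.8 TPM in the controls and at 24.1, 21.9 and 23.8 TPM in the DKD. The groups did not overlap for either gene. The log2 fold change, on the log2(TPM + 0.1) scale used throughout, was -2.44 (SE 0.0682, adjusted p = 7.36e-09) for TRA2A and -2.13 (SE 0.101, adjusted p = 1.11e-07) for TRA2B. All adjusted p-values are from limma with Benjamini-Hochberg adjustment over all tested genes. Each target was less reduced in the DKD than in its own single knockdown. The difference between the DKD and TRA2A KD was 1.46 for TRA2A (log2, SE 0.0682, adjusted p = 1.48e-07), and that between the DKD and TRA2B KD was 1.22 for TRA2B (SE 0.101, adjusted p = 6.19e-06).

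TPM values of the 12 libraries summed to between 940774 and 955539, and the depth behind them is unknown from these values. Mitochondrially encoded transcripts took 23.1 to 31.9% of TPM in the control libraries and 19.3 to 28.3% in the DKD, so the groups overlapped. Correlations of log2 values were 0.910 to 0.933 within the controls, 0.935 to 0.955 within the DKD and 0.864 to 0.903 between these groups. The line was checked against its label by markers. Keratins KRT8 and KRT18 were abundant, at 772 and 1155 TPM on average in the controls. Of 21 lung epithelial lineage markers, however, 6 reached an average of 1 TPM in the controls, and SFTPA1, SFTPA2, SFTPC, SCGB1A1 and KRT5 were at 0 in all 3 of them. The summed level of the 21 markers was 89.5 to 103 TPM in the controls and 54.9 to 68.2 TPM in the DKD. Most of it was MUC1, at 64.0 TPM on average in the controls and 33.9 TPM in the DKD. AGER also fell, from 9.93 to 4.19 TPM, while LAMP3 rose from 0.58 to 4.02 TPM. In the DKD 7 of the 21 reached an average of 1 TPM, so the lower sum was not shared by all markers. Summed endothelial markers stayed at or below 3.33 TPM, with KDR and TEK at 0 in the controls. Summed leukocyte markers were at 15.5 to 26.1 TPM in the controls and 14.5 to 18.1 TPM in the DKD, with CD3D and MS4A1 at 0 in both.

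In the DKD 1153 genes were called higher, which is 7.08% of those tested, and 936 were called lower, which is 5.74%. Genes were called where the adjusted p was below 0.05 and the log2 fold change was beyond 1 in either direction. Among protein-coding genes 616 were called higher and 796 lower. The median log2 fold change was 0.02 over all genes and -0.05 over protein-coding genes. Higher calls made up 55.2% of all calls, 70.1% where the deposited TPM were left unscaled and 44.5% where libraries were quantile normalized. Without scaling the median of all genes moved up by 0.15, so directions of gene lists with small medians are given below only with that in view. The groups did not overlap for 52.1% of all tested genes.

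The median exon number of protein-coding genes called higher was 6, against 10 for those called lower and 9 for all tested protein-coding genes. The median transcript length was 2846 bases for the genes called higher, 3459 for those called lower and 3298 for all. Of the 616 called higher, 46 (7.47%) had a single exon, against 9 of the 796 called lower (1.13%) and 2.17% of all. Without the clustered histone names the genes called higher had a median of 7 exons, and 3.39% had a single exon. The median control level was 3.20 TPM for genes called higher and 12.3 TPM for genes called lower. These are descriptions, and no test was run on them.

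The ATF4 amino acid response had the highest median of the 43 pathway lists. ATF4 is a transcription factor whose translation rises when the kinase arm of the integrated stress response is active, and its targets make, import and charge amino acids or feed back on that response. Of 34 tested members 13 were called higher and 0 lower, beside 7.08% of all genes called higher. The median log2 fold change of the list was 0.81. At an adjusted p under 0.05 alone 27 members were higher and 2 lower, beside 20% and 23.2% of all genes. The list median stayed above 0 in all alternatives tried.

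SESN2, a stress-induced inhibitor of mTORC1 signalling, was at 6.06, 8.21 and 7.73 TPM in the controls and at 89.7, 92.7 and 96.1 TPM in the DKD. Its log2 fold change was 3.5 (SE 0.0960, adjusted p = 7.36e-09). DDIT3, which encodes the transcription factor CHOP, was at 18.8, 39.1 and 38.8 TPM against 336, 225 and 298 TPM. All DKD libraries lay far above all control libraries for both genes, and the first control library was the lowest for each. The log2 fold change of DDIT3 was 3.05 (SE 0.238, adjusted p = 3.30e-06). TRIB3, a pseudokinase that feeds back on ATF4 and CHOP, rose from 7.94, 9.29 and 9.28 TPM to 62.6, 63.9 and 66.1 TPM, a log2 fold change of 2.70 (SE 0.124, adjusted p = 9.44e-08). The groups were well apart, with little spread in either.

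Members that carry out the steps of this response changed too. ASNS, asparagine synthetase, was at 67.1, 82.6 and 76.3 TPM in the controls and at 300, 302 and 318 TPM in the DKD (log2 fold change 1.87). CHAC1, which degrades glutathione, went from 4.38, 5.70 and 5.12 TPM to 35.8, 26.9 and 35.0 TPM (2.50). PPP1R15A, the subunit that directs dephosphorylation of the initiation factor eIF2, went from 18.4, 20 and 19.6 TPM to 65.6, 57.0 and 67.6 TPM (1.55). None of these groups overlapped.  ATF4 itself was at 168, 236 and 210 TPM in the controls and at 385, 321 and 385 TPM in the DKD, a log2 fold change of 0.68 (SE 0.112, adjusted p = 0.000598) that stayed under the fold limit. Of 23 aminoacyl-tRNA synthetases, which load amino acids onto tRNAs, 2 were called higher (8.70%, beside 7.08% of all genes) and 0 lower. They were AARS, at 101, 106 and 112 TPM against 284, 318 and 325 TPM (1.38), and SARS, at 181, 202 and 193 TPM against 494, 480 and 508 TPM (1.21).

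Promoters of the called ATF4 members were read for TGATGNAA, letters of the C/EBP-ATF response element, on both strands of a window from 250 bases before to 50 bases after each RefSeq transcription start (GRCh38.p14). Of the 13 called members 12 had a promoter in the table, and 3 of these (25.0%) held a match. Of the 28 tested members of the list with a promoter, called or not, 6 (21.4%) held one. The share was 3.67% of all 27305 promoters and 1.54% of the 9668 promoters of tested protein-coding genes. The matches are printed because they are where those letters lie in genes that rose, with the matched bases in capitals.
CHAC1, chr15:40953251-40953280, plus strand: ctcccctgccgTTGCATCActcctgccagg
ATF3, chr1:212565205-212565234, plus strand: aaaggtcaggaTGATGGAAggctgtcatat
ASNS, chr7:97872458-97872487, minus strand: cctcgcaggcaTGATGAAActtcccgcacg
A match is a description of the letters, and no factor's binding was measured.

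**Figure D1:**
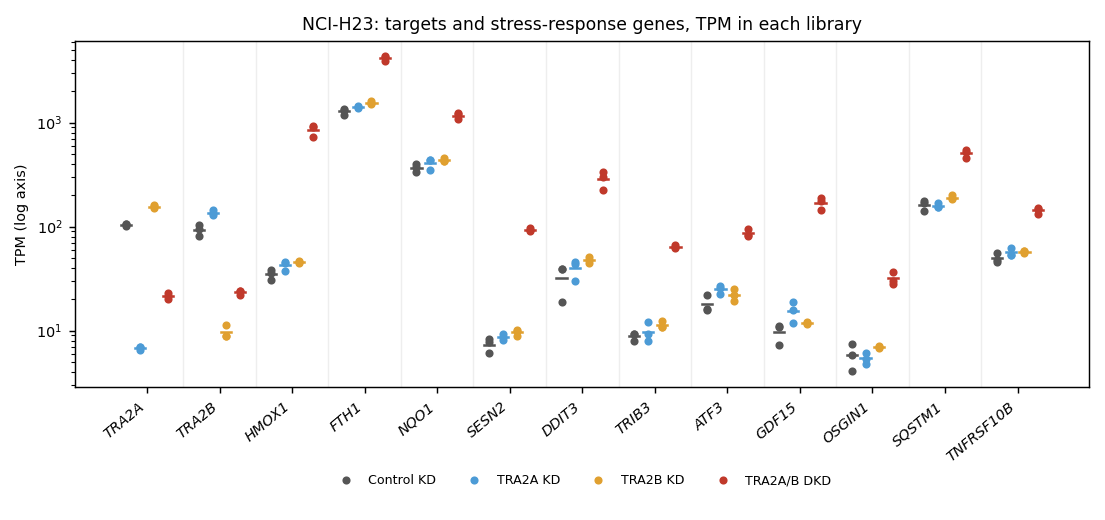
TPM (log axis) in each of the 12 NCI-H23 libraries, coloured by group, for both targets and named genes of the stress responses, where a short line marks the mean. All 3 DKD libraries lie apart from the 3 control libraries for each gene shown, and HMOX1 goes from 34.9 to 851 TPM on average.

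Of the 5 called protein-coding genes with the largest gains in TPM, 4 were of iron and redox genes, and the other was C12orf57 (1.28). NRF2 is a transcription factor that is released when electrophiles or oxidants accumulate, and its targets handle heme, iron, quinones and glutathione. Of 26 tested members 6 were called higher (23.1%, beside 7.08% of all genes) and 1 lower (3.85%, beside 5.74%). The list median was 0.09. HMOX1, heme oxygenase, was at 30.8, 35.5 and 38.2 TPM in the controls and at 898, 727 and 929 TPM in the DKD. Its log2 fold change was 4.45 (SE 0.0849, adjusted p = 3.57e-10), with no overlap and a tight spread in each group. The promoter search described above, run for TGACNNNGC, letters of the antioxidant response element, found a match in 5 of 17 tested members of the list (29.4%) and in 0 of the 3 called members with a promoter, beside 15% of tested protein-coding genes and 13.6% of all promoters.

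Both subunits of ferritin, which stores iron, rose. FTH1 was at 1178, 1327 and 1359 TPM against 4260, 3928 and 4321 TPM, a log2 fold change of 1.54 (SE 0.0522, adjusted p = 1.56e-08). FTL was at 467, 482 and 505 TPM against 1469, 1161 and 1343 TPM, a log2 fold change of 1.29 (SE 0.0920, adjusted p = 1.77e-06). The ferritin groups were wide apart. NQO1, a quinone reductase, was at 337, 397 and 372 TPM against 1224, 1081 and 1196 TPM (1.51, adjusted p = 1.74e-07). OSGIN1 was at 4.07, 7.46 and 5.78 TPM against 28.2, 30 and 36.7 TPM (2.31, adjusted p = 1.83e-06). SLC7A11, the cystine importer that both the NRF2 and the ATF4 list hold, was at 5.35, 5.61 and 5.57 TPM against 16.1, 16.7 and 18.4 TPM (1.46). Again no DKD library reached into the control range. PGD, of the pentose phosphate pathway, fell from 37.5, 42.6 and 40 TPM to 20, 15.6 and 21.0 TPM (-1.25, adjusted p = 8.31e-06). GPX4, the peroxidase that reduces lipid peroxides, had one of the 5 largest losses in TPM among called protein-coding genes, at 883, 1104 and 1058 TPM against 610, 496 and 559 TPM (-1.03, adjusted p = 3.44e-05). GPX4 lost its call in 7 of the alternatives tried, since it lay close to the fold limit.

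Autophagy adaptors and ER stress genes were called in smaller numbers. Of 89 lysosome and autophagy genes 5 were called higher (5.62%, close to the 7.08% of all genes) and 1 lower (1.12%, beside 5.74%). The list median was 0.15. At an adjusted p under 0.05 alone 35 members were higher and 11 lower, beside 20% and 23.2% of all genes. SQSTM1, the autophagy receptor p62, was at 141, 170 and 174 TPM in the controls and at 526, 454 and 544 TPM in the DKD (log2 fold change 1.5, adjusted p = 6.47e-08). MAP1LC3B, a protein of the autophagosome membrane, was at 30.1, 34.7 and 30.5 TPM against 95.6, 85.4 and 104 TPM (1.42, adjusted p = 3.21e-07). The groups were apart for both. Of 36 genes of the ER unfolded protein response 3 were called higher (8.33%, beside 7.08% of all genes) and 1 lower (2.78%, beside 5.74%). HERPUD1 (2.00), DNAJB9 (1.43) and ERN1 (1.09) were the higher ones, and DNAJB11 (-1.22) the lower one. HSPA5, the main ER chaperone, was higher by 0.55 on the log2 scale (adjusted p = 1.64e-05), under the fold limit. The sign of the list median, 0.11, changed when the trend with transcript length and GC content was removed. HSPA1A and HSPA1B, inducible heat shock proteins of near-identical sequence whose reads may be shared, were called higher at 1.25 and 1.22. Of the 45 tested chaperones these were the ones called higher (4.44%), and 3 were called lower (6.67%, beside 5.74% of all genes). FKBP5 (-1.74), a co-chaperone in steroid receptor complexes, fell most. COPB2, a subunit of the COPI coat that moves vesicles through the Golgi, was at 109, 111 and 114 TPM against 345, 385 and 391 TPM (1.59, adjusted p = 6.47e-08), and no library of one group reached the other.

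Of 47 genes of the BCL2 family and death receptors 5 were called higher (10.6%, beside 7.08% of all genes) and 1 lower (2.13%, beside 5.74%), with a list median of -0.03 whose sign changed with scaling. TNFRSF10B, a receptor for the death ligand TRAIL, was at 45.2, 55.8 and 48.0 TPM in the controls and at 148, 131 and 150 TPM in the DKD (log2 fold change 1.37, adjusted p = 2.27e-07). FAS, another death receptor, was at 1.01, 4.24 and 2.40 TPM against 7.42, 6.66 and 5.45 TPM (1.37, adjusted p = 0.0131). The FAS groups did not overlap, although the control libraries differed more among themselves than the DKD libraries did. The other 3 called higher were TNFRSF10C, which rose most (1.63), XIAP and BBC3. BIRC3, an inhibitor of apoptosis, fell from 43.7, 37.5 and 42.1 TPM to 21.0, 23.9 and 20.9 TPM (-1.06, adjusted p = 2.78e-05). XIAP, called higher, is also an inhibitor of apoptosis, so such inhibitors went both ways. GDF15, a secreted stress cytokine of the TGF-beta family and, like SESN2, TNFRSF10B and FAS, also a known p53 target, was at 7.29, 10.8 and 11 TPM against 186, 145 and 176 TPM, a log2 fold change of 3.97 (SE 0.163, adjusted p = 4.91e-08).

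Inflammatory genes were called lower more often than higher. Of 37 tested NF-kB targets, cytokines and chemokines 5 were called lower and 1 higher, with a median of -0.22, beside 5.74% of all genes called lower. CCL2, a chemokine that draws monocytes, was at 6.73, 13.9 and 10.1 TPM in the controls and at 3.07, 2.79 and 2.60 TPM in the DKD (log2 fold change -1.92, adjusted p = 6.71e-05). TNFAIP3, a deubiquitinase that restrains NF-kB, was at 48.4, 70.5 and 70 TPM against 25.7, 18.6 and 27.5 TPM (-1.55, adjusted p = 8.26e-06). The groups did not overlap for either gene. NFKBIA, the inhibitor of NF-kB, also fell (-1.06), and TNFSF9 rose (1.03). Of 30 tested interferon-stimulated genes 4 were called lower (13.3%) and 1 higher (3.33%, beside 7.08% of all genes). Of 20 genes of MHC class I presentation 2 were called lower (10%) and 0 higher. The latter were TAP1, a peptide transporter, at 45.0, 47.7 and 43.0 TPM against 18.6, 20.7 and 19.6 TPM (-1.36), and the proteasome subunit PSMB9 (-1.28).

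ISG15, a ubiquitin-like interferon product, was low throughout, at 1.66, 2.38 and 1.91 TPM against 0.653, 0 and 0.617 TPM (-2.58, adjusted p = 0.00997). IFITM3, a membrane protein that blocks virus entry, was at 162, 173 and 191 TPM against 102, 72 and 93.5 TPM (-1.14, adjusted p = 2.69e-05). Both were lower in every DKD library, although ISG15 rests on levels near the filter. The summed leukocyte markers of the groups overlapped, as given above.

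Immediate early genes split. Of 35 tested members 6 were called higher (17.1%, beside 7.08% of all genes) and 3 lower (8.57%, beside 5.74%), with a median of 0.30. ATF3, which is also on the ATF4 list, was at 15.8, 21.8 and 16.1 TPM against 83.0, 80.8 and 94.3 TPM (2.12, adjusted p = 6.27e-07), and FOSB was higher by 1.83 (adjusted p = 9.43e-06). NR4A1, an orphan nuclear receptor, fell from 51.9, 57.6 and 55.2 TPM to 26.7, 26.3 and 25.5 TPM (-1.22, adjusted p = 2.27e-06). ATF3 and NR4A1 thus moved apart in libraries that each showed little spread.

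**Figure D2:**
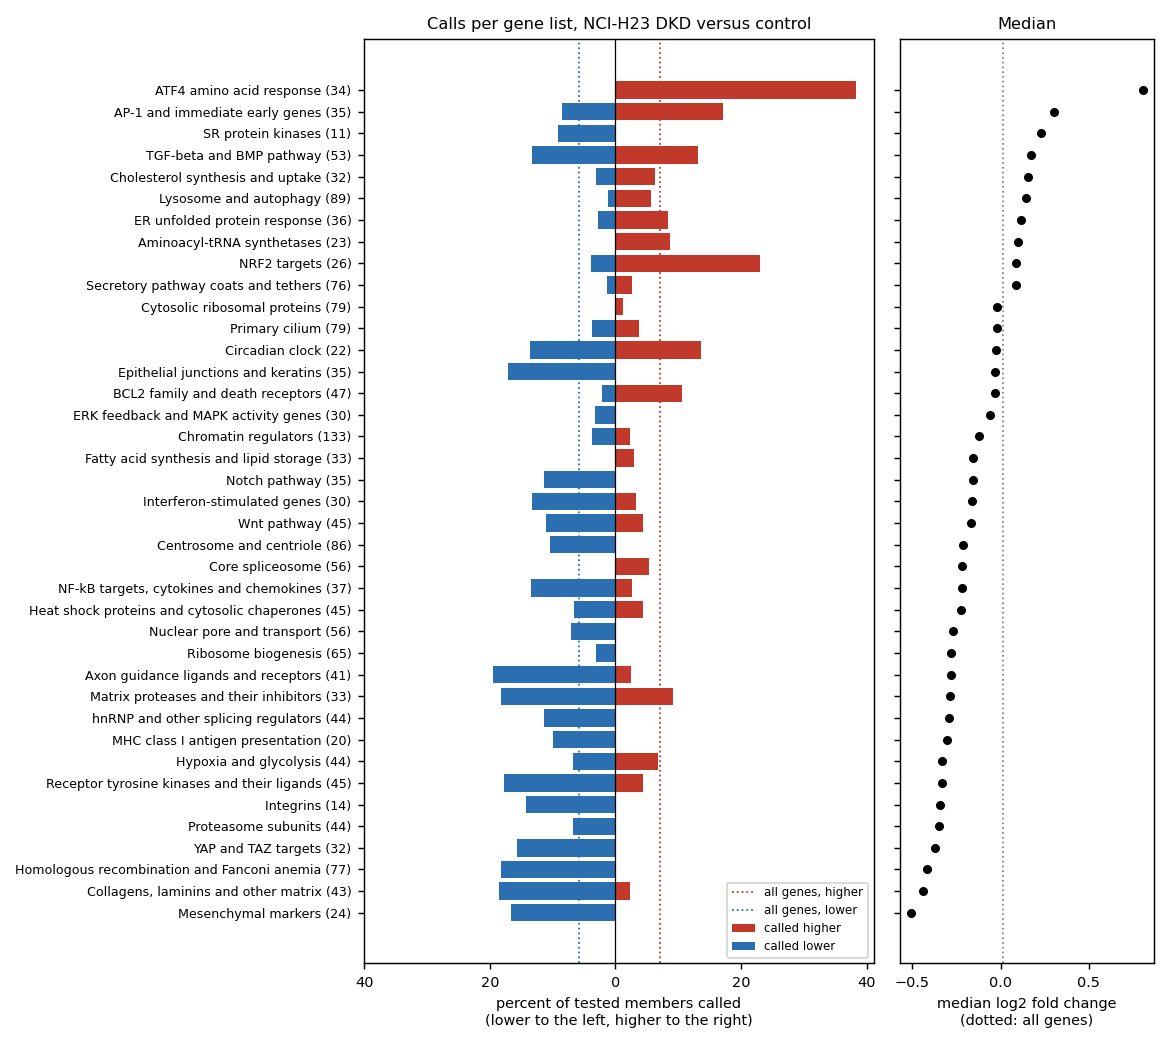
Percent of tested members called lower (left) and higher (right) in NCI-H23 DKD versus control for each list with at least 1 call, with the number of tested members in parentheses, and the median log2 fold change of each list. Dotted lines mark the 5.74% and 7.08% of all genes called lower and higher and the median of all genes, and the ATF4 list has the highest median, 0.81.

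Matrix, protease and adhesion genes were mostly on the lower side. Of 43 tested collagens, laminins and other matrix genes 8 were called lower (18.6%, beside 5.74% of all genes) and 1 higher (2.33%, beside 7.08%). The list median was -0.44. LAMA5, a laminin chain of basement membranes, was at 65.9, 67.2 and 58.7 TPM in the controls and at 24.4, 20 and 29.5 TPM in the DKD (log2 fold change -1.54, adjusted p = 2.11e-06). LAMC3 went from 11.5, 11.5 and 9.39 TPM to 3.26, 4.20 and 2.58 TPM (-1.83, adjusted p = 5.64e-05). Both laminins were lower in every DKD library than in any control. The exception was BGN, the proteoglycan biglycan, at 6.94, 7.12 and 8.07 TPM against 21.4, 22.2 and 23.1 TPM (1.43, adjusted p = 3.03e-06). The summed level of 8 fibroblast markers did not overlap between groups, with 35.8 to 39.9 TPM in the controls and 18.6 to 22.3 TPM in the DKD. Most of that sum was COL1A1, itself on the matrix list, at 30.5 TPM on average in the controls and 15.2 TPM in the DKD. COL3A1 and LUM also averaged lower in the DKD, while COL1A2, PDGFRA, PDGFRB, DCN and FAP averaged slightly higher. The part of this sum in the result was not tested.

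Proteases and their inhibitors went both ways. Of 33 tested members 6 were called lower (18.2%, beside 5.74% of all genes) and 3 higher (9.09%, beside 7.08%). PLAU, the urokinase that activates plasminogen, was at 27.6, 33.5 and 31.7 TPM against 8.65, 5.62 and 8.63 TPM (log2 fold change -2.18, SE 0.144, adjusted p = 1.01e-06). TIMP2, an inhibitor of metalloproteases, was at 8.61, 8.60 and 9.56 TPM against 3.08, 3.19 and 3.27 TPM (-1.61, adjusted p = 1.09e-06). Both genes were lower in every DKD library than in any control. Of 24 tested mesenchymal markers 4 were called lower (16.7%) and 0 higher, with a median of -0.51. LOXL2, an enzyme that crosslinks collagen, led them at -1.88. Of 35 epithelial junction genes and keratins 6 were called lower (17.1%) and 0 higher, with a median of -0.03 whose sign changed with scaling. CDH1, E-cadherin, was at low levels throughout, at 1.96, 1.76 and 2.09 TPM against 0.550, 0.954 and 0.630 TPM (-1.5, adjusted p = 0.00306). Summed general epithelial markers, mostly KRT8 and KRT18, were at 1910 to 1976 TPM in the controls and 1374 to 1607 TPM in the DKD. Summed neuroendocrine markers went the other way, from 190 to 259 TPM in the controls to 445 to 634 TPM in the DKD. Nearly all of that sum was UCHL1, a ubiquitin hydrolase of neurons, while INSM1 was at 0 in the controls. The 4 tested neuroendocrine markers did not move as a group. UCHL1 was called higher, and ENO2 was called lower, from 10.3 to 4.79 TPM on average (-1.24, adjusted p = 0.0044). The part of these shifts in the results was not tested.

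Growth factor and developmental signalling genes included several of the largest falls. Of 45 tested receptor tyrosine kinases and their ligands 8 were called lower (17.8%, beside 5.74% of all genes) and 2 higher (4.44%, beside 7.08%). The list median was -0.33. HGF, the ligand of the receptor MET, was at 14.5, 16.6 and 14.7 TPM in the controls and at 2.96, 2.26 and 2.95 TPM in the DKD (log2 fold change -2.61, SE 0.0998, adjusted p = 3.00e-08). MET itself was at 55.2, 50.2 and 51.7 TPM against 20, 24.7 and 25.9 TPM (-1.32, adjusted p = 3.59e-06). Ligand and receptor were both lower in all 3 DKD libraries. AREG, a ligand of the EGF receptor, rose from 10.5, 10.7 and 11.1 TPM to 41.2, 33.7 and 44 TPM (1.71, adjusted p = 4.65e-05).

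In the TGF-beta and BMP pathway 7 of 53 tested members were called higher and 7 lower (13.2% each way, beside 7.08% and 5.74%). The list median was 0.17 and turned below 0 under quantile normalization. TGFB2, a ligand, fell by 1.81 on the log2 scale, while SMAD9, a signal transducer, rose by 1.87. Of 41 axon guidance genes 8 were called lower (19.5%, beside 5.74% of all genes) and 1 higher (2.44%, beside 7.08%). SEMA6B led the falls, at 20.4, 18.2 and 17.3 TPM against 4.65, 5.68 and 4.69 TPM (-2.03, adjusted p = 2.07e-06). NRP1, a co-receptor for semaphorins and VEGF, was the member called higher (1.83, adjusted p = 0.000704). Beside 5.74% of all genes, 5 of 32 YAP and TAZ targets (15.6%), 4 of 35 Notch genes (11.4%) and 5 of 45 Wnt genes (11.1%) were called lower. Those called higher were 0, 0 and 2, beside 7.08% of all genes. In the Notch list the ligand JAG2 led at -1.43. Circadian genes split evenly, with 3 of 22 (13.6%) called in each direction. The nuclear receptor NR1D2, which represses clock genes, was at 5.77, 5.08 and 4.66 TPM against 13.5, 19.3 and 15.8 TPM (1.46, adjusted p = 9.11e-05). NPAS2, an activator in the clock, was at 20.8, 19.4 and 17.7 TPM against 7.17, 8.01 and 9.18 TPM (-1.40, adjusted p = 1.01e-05). NR1D2 and NPAS2 moved in opposite directions, but repressors and activators did not split as groups. BHLHE41, another clock repressor, fell by 2.08. RORA, a nuclear receptor that activates clock genes, had the largest rise of the list, 2.61.

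Genome maintenance and most RNA processing lists had medians below 0. Of 77 homologous recombination and Fanconi anemia genes 14 were called lower (18.2%, beside 5.74% of all genes) and 0 higher. The list median was -0.42. BARD1, the partner of BRCA1, was at 11.2, 11.8 and 7.21 TPM against 3.66, 2.08 and 4.15 TPM (-1.76, adjusted p = 0.00128). CLSPN, an adaptor of the replication checkpoint, was at 39.4, 36.0 and 34.7 TPM against 12.2, 12.3 and 13.6 TPM (-1.68, adjusted p = 2.50e-06). Neither gene's groups overlapped. Of 86 centrosome genes 9 were called lower (10.5%) and 0 higher. Of 56 nuclear pore and transport genes 4 were called lower (7.14%, close to the share of all genes) and 0 higher. The 11 tested SR proteins had no call in either direction and a median of -0.32. At an adjusted p under 0.05 alone 8 of them were lower and 2 higher, beside 23.2% and 20% of all genes. Of 56 core spliceosome genes 3 were called higher (5.36%, beside 7.08% of all genes) and 0 lower, though the list median was -0.22. They were U2AF1 (1.24), SLU7 (1.15) and SYF2 (1.01). Of 11 tested SR protein kinases 1 was called lower (9.09%, beside 5.74% of all genes) and 0 higher. That list's median was above 0, at 0.23, with 3 members higher and 1 lower at an adjusted p under 0.05 alone. The called member was SRPK1, at 68.3, 66.1 and 70.6 TPM against 22.8, 30.3 and 31.3 TPM (-1.45, adjusted p = 1.77e-05). HNRNPD, an RNA-binding protein, fell from 267, 291 and 280 TPM to 121, 101 and 125 TPM (-1.43, adjusted p = 4.46e-08).

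Other pathways had no call, or shares of calls close to or below those of all genes (7.08% higher, 5.74% lower). None of 76 nuclear-encoded respiratory chain genes and none of 13 mitochondrially encoded protein genes was called by limma, with medians of -0.23 and -0.49. At an adjusted p under 0.05 alone 24 and 7 of them were lower and 2 and 0 higher, beside 23.2% and 20% of all genes. Of 79 cytosolic ribosomal proteins 1 was called higher, RPS27, at 27, 41.8 and 39.6 TPM against 171, 106 and 166 TPM (1.87, adjusted p = 0.000193). Of 65 ribosome biogenesis genes 2 were called lower and 0 higher, while 35 were lower and 7 higher at an adjusted p under 0.05 alone. Of 44 proteasome subunits 3 were called lower and 0 higher, while 29 were lower and 0 higher at an adjusted p under 0.05 alone, with a median of -0.35. PSMA4, of the core particle, was at 231, 272 and 273 TPM against 105, 87.1 and 110 TPM (-1.52, adjusted p = 1.53e-07). Among 133 chromatin regulators 5 were called lower and 3 higher. KDM7A, a histone demethylase, was at 3.62, 5.69 and 3.95 TPM against 17.4, 23.6 and 18.6 TPM (2.0, adjusted p = 2.04e-05), and DNMT1, which copies DNA methylation, at 145, 160 and 156 TPM against 80, 67.4 and 93.7 TPM (-1.10, adjusted p = 1.42e-06). The groups were apart for both chromatin genes. Among 44 hypoxia and glycolysis genes 3 (6.82%) were called in each direction. The list median was -0.33, and 22 members were lower and 7 higher at an adjusted p under 0.05 alone. The called falls were SLC16A3 (-2.0), LOXL2 (-1.88) and ENO2 (-1.24). Of the called rises NDRG1, a hypoxia-induced gene, went from 10.7, 15.1 and 13.6 TPM to 52.8, 54.8 and 56.5 TPM (1.91, adjusted p = 3.65e-06).

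Many of the highest fold changes were of genes at low levels in the controls. By rule the 20 protein-coding genes of largest fold change in each direction were taken from 304 eligible genes that were higher and 439 that were lower. NECTIN4, a cell adhesion molecule, was at 0.120, 0.278 and 0.259 TPM in the controls and at 21.0, 16.7 and 20.1 TPM in the DKD (log2 fold change 5.83, SE 0.389, adjusted p = 1.11e-06). SLC13A3, a dicarboxylate transporter, was at 0.577, 0.251 and 0.617 TPM against 25.6, 16.4 and 24.9 TPM (5.16). SLFN5, of the Schlafen family, was at 1.53, 0.987 and 0.508 TPM against 30.6, 32.6 and 34.6 TPM (4.84). All but 1 of these control values were below 1 TPM, and the filter was passed mainly through the DKD libraries for NECTIN4, which reached 1 TPM in the 3 DKD libraries and 1 TRA2A KD library. GUCA1B, SLC6A13, BEX2, LSMEM1 and DHRS2 were also among the 20, at 4.78, 4.58, 3.49, 3.31 and 3.19. Other names among the 20 are uncertain, since CHURC1-FNTB (4.16) and STX16-NPEPL1 (3.22) are read-through transcripts that share sequence with their parent genes.

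HIST2H2AA3 was at 0, 17.4 and 3.34e-06 TPM in the controls and at 166, 102 and 155 TPM in the DKD, and it has a near-identical copy, so its log2 fold change of 7.85 (SE 1.59) is uncertain. Clustered histone genes were looked at as a group after their values were seen. Their mRNAs usually lack a poly(A) tail. Of 53 tested 27 were called higher (50.9%, beside 7.08% of all genes) and 0 lower, with a median of 1.5. HIST1H2AC went from 9.30, 12.1 and 12.6 TPM to 115, 95.3 and 120 TPM (3.12, adjusted p = 1.19e-08). Zinc finger genes named ZNF, also taken after their values were seen, had 45 of 398 tested called higher (11.3%) and 6 lower (1.51%, beside 5.74% of all genes). Their median was 0.37.

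Among the 20 largest falls, CRH, the hormone that starts the stress axis, was at 23.9, 27.5 and 32.3 TPM in the controls and at 4.16, 2.98 and 3.52 TPM in the DKD (log2 fold change -3.09, SE 0.141, adjusted p = 9.23e-08). GNG11, a G protein gamma subunit, was at 45.0, 45.6 and 54.6 TPM against 8.83, 8.88 and 8.53 TPM (-2.60, SE 0.0846, adjusted p = 1.37e-08). TERT, the catalytic subunit of telomerase, was at 9.74, 11.5 and 11.5 TPM against 2.28, 3.91 and 1.43 TPM (-2.32, SE 0.320, adjusted p = 0.000184). CRH and GNG11 were steady within groups, while the DKD libraries of TERT differed more. BMP5, NPY and CKB fell by 2.34, 2.25 and 2.11 on the log2 scale, and the condensin subunits NCAPH and SMC2, which compact mitotic chromosomes, by 2.04 and 1.95. SLC16A3, a lactate exporter, was at 29.8, 31.5 and 30.1 TPM against 7.33, 9.0 and 8.89 TPM (-2.0, adjusted p = 9.44e-08). Among called protein-coding genes the largest losses in TPM were of abundant transcripts near the fold limit, namely PTMA (-1.01), TAGLN2 (-1.12), HNRNPA1 (-1.0) and TUBB (-1.08), besides GPX4.

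**Figure D3:**
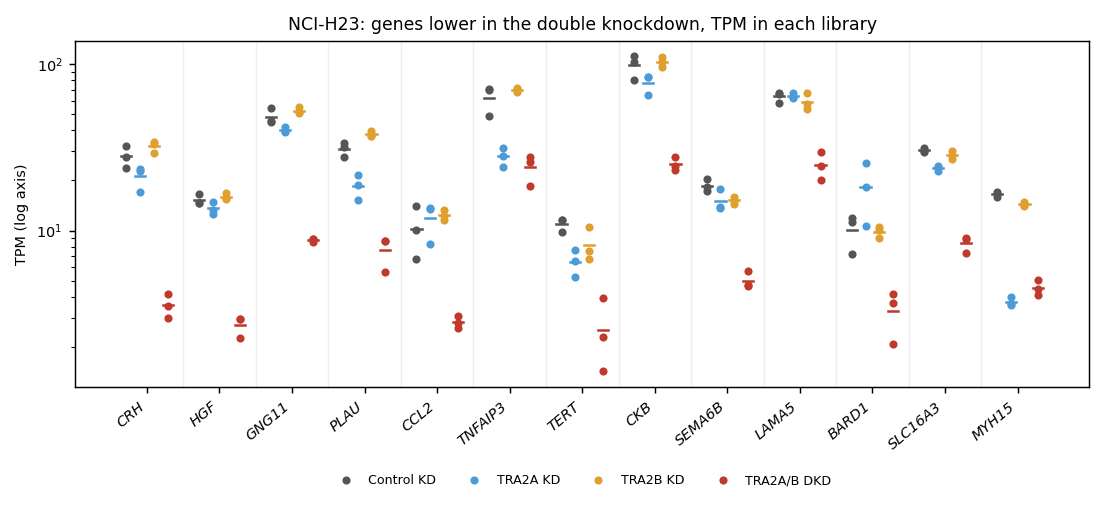
TPM (log axis) in each of the 12 NCI-H23 libraries, coloured by group, for genes that were lower in the DKD, where a short line marks the mean. The 3 DKD libraries lie below the 3 control libraries for each gene, and MYH15 and TNFAIP3 were also called lower in TRA2A KD. Smaller falls in TRA2A KD, with no overlap with the controls, include those of PLAU (log2 fold change -0.73), TERT (-0.74) and SLC16A3 (-0.34).

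In the single knockdowns few genes were called. TRA2A KD had 23 genes called higher (0.141%) and 18 lower (0.11%), and TRA2B KD had 15 higher (0.0921%) and 3 lower (0.0184%). The non-additive term, the DKD effect minus both single effects, was called above 0 for 533 genes (3.27%) and below 0 for 536 (3.29%). It was called in the gene's own direction for 14 of the 20 largest rises and 18 of the 20 largest falls. These genes were chosen by the DKD contrast, which is part of that term, so these counts are a description. For HMOX1 the log2 fold change was 0.30 in TRA2A KD and 0.27 in TRA2B KD, and the term was 3.87 (adjusted p = 6.7e-08). For SESN2 it was 0.26 and 0.29, and the term was 2.95 (adjusted p = 2.3e-06). Both genes thus stood near the control in either single knockdown. The single knockdowns share the control libraries with the DKD.

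A few genes moved with 1 paralog. Of the 20 largest rises 4 were called in TRA2A KD and 2 in TRA2B KD, and of the 20 largest falls 1 was called in TRA2A KD. MYH15, a myosin heavy chain, was at 16.7, 17 and 16.0 TPM in the controls and at 4.07, 5.06 and 4.46 TPM in the DKD (-2.0), and its log2 fold change was -2.11 in TRA2A KD (adjusted p = 1.1e-05) and -0.32 in TRA2B KD. TNFAIP3 had -1.14 in TRA2A KD (adjusted p = 0.0028) and 0.05 in TRA2B KD. FBXO44, an F-box protein that selects substrates for ubiquitination, was at 2.09, 1.57 and 2.57 TPM against 55.0, 42.4 and 54.1 TPM (4.40). In FBXO44 the log2 fold change was 3.94 in TRA2B KD (adjusted p = 3.1e-06) and 0.70 in TRA2A KD. FBXO2, of the same family, had 3.11 in the DKD, 2.83 in TRA2B KD (adjusted p = 0.00038) and 0.04 in TRA2A KD. STAT6, a transcription factor of cytokine signalling picked after its values were seen, had 2.46 in the DKD, 2.70 in TRA2B KD (adjusted p = 2.9e-08) and 0.34 in TRA2A KD.

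The same knockdown was made in A549, another lung adenocarcinoma line, whose table was made separately, so no test was run between the lines. There 7.53% of 16405 tested genes were called higher and 5.27% lower. Of the 20 largest rises in NCI-H23 19 were tested in A549 and 17 were called higher. Of the 20 largest falls 15 were tested and 6 were called lower: GNG11, TERT, NCAPH, SEMA6B, B4GALNT4 and SMC2. The sign in A549 was the same as in NCI-H23 for 18 of the 19 rises and 14 of the 15 falls. A549 Control KD replicate 3 had the lowest correlation with the other libraries, and without it the counts of calls were 17 and 7. The ATF4 list had a median of 1.37 in A549 (1.29 without that library) beside 0.81 in NCI-H23. The NRF2 list had -0.26 (-0.35) beside 0.09. HMOX1 had a log2 fold change of 1.11 in A549 (1.00 without the library) and 4.45 in NCI-H23, FTH1 0.25 (0.09) and 1.54, and NQO1 0.18 (-0.04) and 1.51. The NF-kB list had 0.56 (0.42) in A549 beside -0.22, and the matrix list -0.48 (-0.45) beside -0.44.

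**Figure D4:**
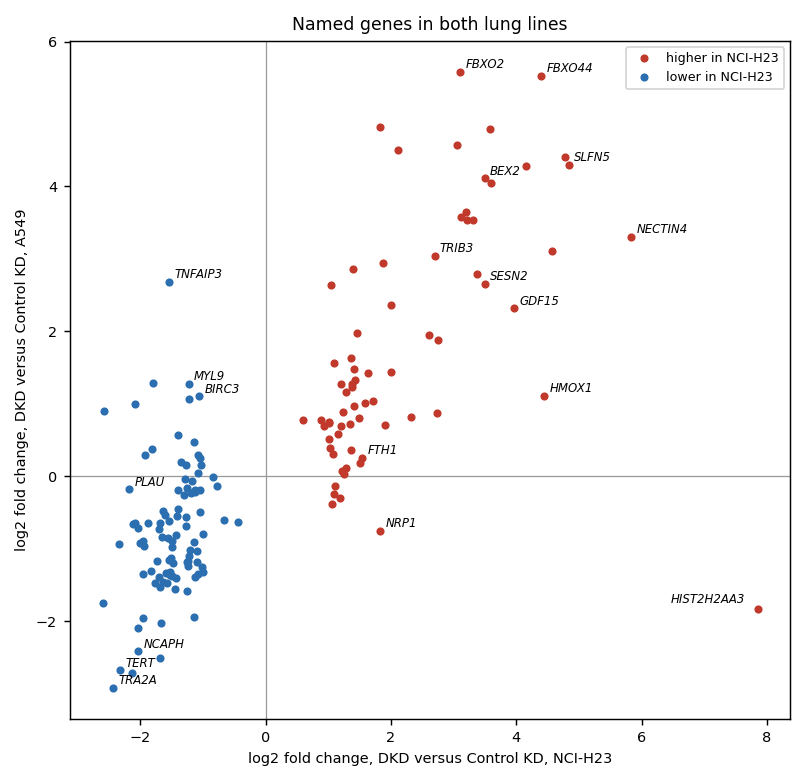
Log2 fold change of DKD versus Control KD in NCI-H23 (horizontal axis) and A549 (vertical axis) for the 166 named genes tested in both lines, each point 1 gene. Genes in the upper left or lower right quadrant had opposite signs, as TNFAIP3 did at -1.55 in NCI-H23 and 2.69 in A549.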

How the data were processed

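Polyadenylated RNA of NCI-H23 and A549 cells was sequenced, 12 libraries per line. The authors quantified reads with kallisto 0.48.0 and deposited gene-level TPM, unscaled between libraries. The submitters' notes also name STAR 2.7.3 and GRCh38. The paper names Gencode v34 as the annotation, but some deposited names are older symbols, so the release was not verified here. TPM keeps no depth, so precision is the spread of 3 libraries. All columns used were matched to samples by name. Genes reaching 1 TPM in 4 or more libraries entered the fit. Libraries were scaled by trimmed means of log ratios without weights (30% and 5% trims) and taken as log2(TPM + 0.1), on which fold changes of low genes are understated. All 12 libraries of a line entered 1 fit in limma 3.58.1 (R 4.3.3), with 4 groups and the non-additive term as DKD minus TRA2A KD minus TRA2B KD plus Control KD, with empirical Bayes moderation, a mean-variance trend, two-sided tests and Benjamini-Hochberg adjustment. With 3 libraries against 3 the smallest exact permutation p is 0.1. Biotype, exons, length and GC content came from Gencode v44, in which 13410 tested names were found, 649 more by an older symbol, and 2234 were not found. The fit was tested on simulated data.

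Named genes were TRA2A, TRA2B, the 20 called protein-coding genes of largest change in each direction with at least 10 TPM in the higher group and no overlap, the 5 called protein-coding genes of largest gain and of largest loss in TPM, up to 3 called members per list and direction (2 where none was called), and, by value, members at the core step of a pathway. The 43 pathway and 6 marker lists and the members were chosen with earlier results of these data known. The glioma tables were not used here. Alternatives were another pseudocount, filter, scaling, fit, block or fold limit, removal of trends with length and GC content, and each library left out. Values of 2 genes are not reported here.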

Additional observations from a re-analysis of the deposited data

Results flagged for a closer look

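Of the 166 named genes tested in both lines 10 (6.02%) had every NCI-H23 DKD library on one side of the controls and every A549 DKD library on the opposite side, beside 323 (2.24%) of all 14450 genes tested in both. The named genes were chosen by their change in NCI-H23, so these shares are a description. The difference between the lines was not tested. The log2 fold change of TNFAIP3 was -1.55 in NCI-H23 and 2.69 in A549, of BIRC3 -1.06 and 1.11, of NR4A1 -1.22 and 1.07, and of MYL9 -1.23 and 1.28. These 4 passed an adjusted p of 0.05 (limma) in both lines, as did KLF2 at -1.39 and 0.57 and NRP1 at 1.83 and -0.75. BHLHE41 had -2.08 and 1.00, ISG15 -2.58 and 0.89, TAP1 -1.36 and 0.19, and B9D2 -1.05 and 0.26, and for these the A549 value did not pass. Without A549 Control KD replicate 3 the A549 values moved by over 1.5 times for BHLHE41 (0.64), ISG15 (0.60), TAP1 (0.09), NRP1 (-0.45) and B9D2 (0.09), and which of the 10 passed did not change.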

How the results depend on the processing

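With a filter of at least 5 TPM in at least 4 libraries 543 genes were called higher and 535 lower (381 and 481 protein-coding) and 673 were non-additive, since fewer genes were tested. With no minimum fold change 3252 were higher and 3783 lower (2500 and 3535 protein-coding) and 3429 non-additive. Leaving out each library in turn gave 966 to 1170 higher and 889 to 918 lower calls, 550 to 625 and 767 to 790 protein-coding, and 895 to 1060 non-additive genes. Log2 fold changes were then -2.47 to -2.38 for TRA2A and -2.19 to -2.07 for TRA2B. With the replicate number as a block (replicate block) 1135 genes were higher and 921 lower. Same-numbered libraries did not deviate together (correlations -0.044, -0.058 and -0.007), so no pairing by number was seen. Library-wide differences also enter these correlations, so they cannot exclude a pairing. Without A549 Control KD replicate 3, an alternative chosen after seeing the data, 24 of the 40 genes of largest change were called in the same direction in A549, against 23. No named gene changed direction under any alternative. With a pseudocount of 1, 28 of 184 named genes lost their call, and 18 did with the TPM as deposited. TPM holds no counts, so the limits that depth sets could not be computed.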
